A study of Mus musculus with 5 samples.

Results

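The circular RNAs of 7 genes that act on chromatin in spermatids, Ep400, Brdt, Chd5, Kdm3a, Epc1, Rnf8 and Kat5, were examined in mouse testis. Members were chosen by the host gene symbol in the circRNA table, which gave 21 of 11957 circRNAs. Ep400 was host to 12 of them, Kdm3a to 3, Brdt and Rnf8 to 2 each, Chd5 and Epc1 to 1 each, and Kat5 to 0. The mice were C57BL/6J males, 10 weeks old. Triptolide, a diterpenoid made by the plant Tripterygium wilfordii, was given by mouth (intragastric) to 6 mice at a daily dose of 50 µg/kg, and the other 6 mice received saline. Testes were collected on day 35. The libraries number 3 for triptolide and 2 for saline control. Whether a library holds 1 animal or several is not stated in the labels, so each p-value reflects the spread among these libraries alone, which may be technical. The 3 triptolide columns of the circRNA table carry the same header and are called triptolide A, B and C.

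Spermatids replace most histones by transition proteins and then by protamines, which pack the DNA of the sperm head. The exchange follows a wave of histone acetylation and opening of nucleosomes. Ep400 encodes the large ATPase of the TIP60/NuA4 complex, which places the variant histone H2A.Z in nucleosomes. Kat5 encodes TIP60, the acetyltransferase of that complex, and Epc1 a scaffold subunit of it. Brdt encodes the testis-specific BET protein, which binds acetylated histone H4 and is needed for histone removal in mice. Chd5 encodes a chromodomain helicase required in mouse spermatids for normal exchange of histones. Kdm3a encodes a demethylase of histone H3 lysine 9 that activates transition protein and protamine genes. Rnf8 encodes an E3 ubiquitin ligase that marks histones H2A and H2B. A circular RNA forms when a splice donor is joined back to an acceptor that lies upstream of it, and it is recognised by reads across that back-splice junction.

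The circRNA table gives SRPBM, taken from the name of the table as back-splice reads per fixed number of mapped reads. The worth of 1 read was 9.567, 8.859 and 8.709 SRPBM in triptolide A, B and C, against 8.797 and 8.286 SRPBM in control 1 and 2. With these steps 100% of the values above 0 were whole reads cut to a whole number of SRPBM, so junction reads are also given. They summed to 32804, 44318 and 35323 in triptolide A, B and C, against 39999 and 43680 in control 1 and 2. The smallest value listed in any library was 2 reads, so a circle listed at 0 may have had 1 read. Among marker genes, 14 of 26 of meiotic prophase and 5 of 15 of round spermatids were circRNA hosts. So were 3 of 14 of elongating spermatids, 2 of 12 of spermatogonia and 1 of 10 of Leydig cells. Of Sertoli cell and epididymis markers, 0 of 12 and 0 of 8 were. Hosting thus does not tell Sertoli cells, which belong to the testis, from another tissue, and it is no check of the tissue. In whole tissue, fewer cells of a type and less RNA per cell cannot be told apart.

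A single Ep400 circle carried most of the circular RNA of the whole set. This circle, with a span of 2963 bases (chromosome 5, 110.754 to 110.757 Mb in the deposited coordinates), had 4802, 5208 and 5687 SRPBM in triptolide A, B and C, against 5938 and 5038 SRPBM in control 1 and 2. The groups overlapped, with both the lowest and the next to highest library in the triptolide group. The same values correspond to 502, 588 and 653 junction reads in triptolide A, B and C, against 675 and 608 in control 1 and 2. It ranked 2 among all circRNAs in each of the 5 libraries. It held 1.54%, 1.34% and 1.86% of the SRPBM of all circRNAs in triptolide A, B and C, against 1.7% and 1.4% in control 1 and 2. In the mean over the 5 libraries, 5335 SRPBM, it stood between a Bbs9 circle (chromosome 9, 22643745 to 22679064) at 9489 SRPBM and another Bbs9 circle (chromosome 9, 22643745 to 22659145) at 3291 SRPBM. The first of these, with 7337 to 14656 SRPBM, did not overlap with the Ep400 circle across libraries. The second, with 2343 to 5366 SRPBM, overlapped with it across libraries but was lower within each. A junction read counts 1 point of the RNA, so these levels do not depend on the length of the circle.

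The level of the abundant Ep400 circle was not shown to differ after triptolide. It averaged 5232 ± 443 SRPBM in triptolide (SD, n = 3) and 5488 ± 636 SRPBM in control (SD, n = 2). Fold changes of circles are on the log2(SRPBM + 16) scale. Limma over 5457 circRNAs put that of the abundant circle at -0.07 ± 0.25 (SE), with an adjusted p of 0.99. Its 95% interval ran from -0.64 to 0.51, that is from 0.64-fold to 1.42-fold. With the summed SRPBM of the libraries made equal, the log2 fold change was 0.02, with edgeR on the recovered reads it was 0.04, and without control 1 it was 0.05, so no direction is given.

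The other Ep400 circles were far less abundant. The next, of 1370 bases (chromosome 5, 110.755 to 110.757 Mb), lies inside the abundant one, with the same high end and a low end 1593 bases nearer to it. It had 1224, 1098 and 1341 SRPBM in triptolide A, B and C, against 1583 and 1226 SRPBM in control 1 and 2. Its libraries overlapped between the groups too, and its rank among all circRNAs was 16, 26 and 15 in triptolide A, B and C, against 16 and 22 in control 1 and 2. A circle of 14797 bases with the same high end (low end at 110741970) had 76, 141 and 104 SRPBM in triptolide A, B and C, against 123 and 58 SRPBM in control 1 and 2. The only other Ep400 circle above 0 in all 5 libraries, of 3830 bases (chromosome 5, 110673109 to 110676938), lies farther downstream in the gene. It had 57, 26 and 78 SRPBM in triptolide A, B and C, against 61 and 49 SRPBM in control 1 and 2, which is 3 to 9 reads in triptolide and 6 to 7 reads in control libraries. For both of these circles the groups overlapped. The log2 fold change of the 1370-base circle was -0.19 ± 0.26 (SE, 95% interval -0.80 to 0.42, adjusted p = 0.954 in limma). That of the 14797-base circle was 0.24 ± 0.47 (SE, adjusted p = 0.985 in limma), but -0.21 without control 2. That of the 3830-base circle was -0.10 ± 0.55 (SE, adjusted p = 0.994 in limma), but 0.09 with edgeR on recovered reads, 0.02 without control 1 and 0.23 without triptolide B. No direction is given for either.

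**Figure D1:**
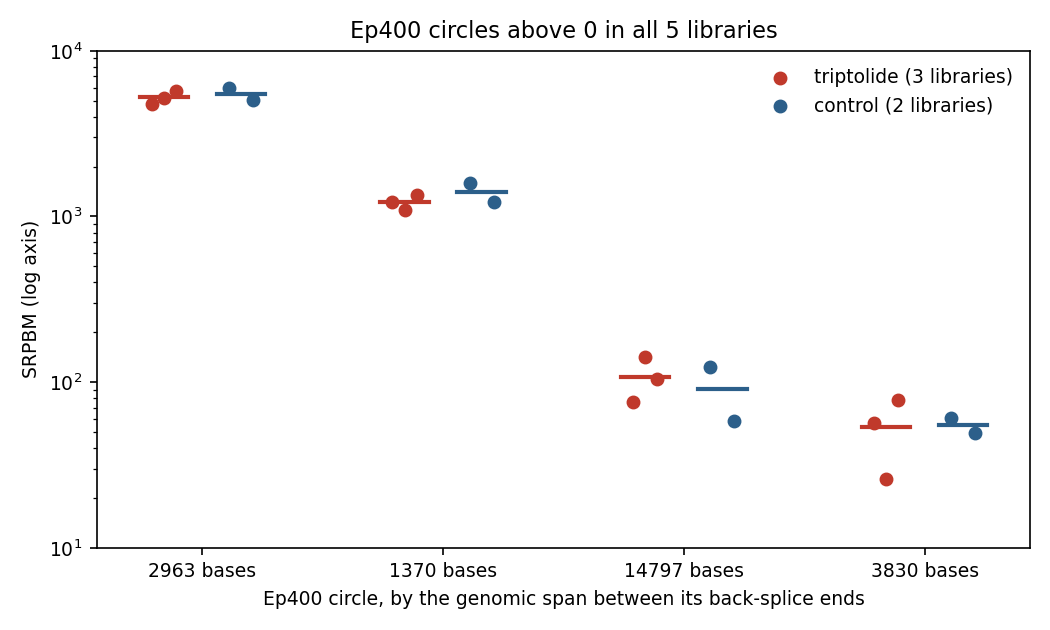
SRPBM on a log axis of the 4 Ep400 circles above 0 in all 5 libraries, with the circles named by the genomic span between their back-splice ends; points are libraries (red, triptolide; blue, control) and short lines are group means. The circle of 2963 bases lies between 4802 and 5938 SRPBM in every library, and the groups overlap for each of the 4 circles.

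The abundant circle made up a nearly constant share of the Ep400 circles. Its share was 77.7%, 79.3% and 78.6% in triptolide A, B and C, against 76.4% and 77.9% in control 1 and 2. The exact binomial 95% intervals were 74.3% to 80.9%, 76.2% to 82.1% and 75.6% to 81.3% in triptolide A, B and C, against 73.4% to 79.1% and 74.8% to 80.7% in control 1 and 2. These intervals cover counting error only, and all 5 overlap. The mean share was 78.5% ± 0.78 in triptolide (SD, n = 3) and 77.1% ± 1.07 in control (SD, n = 2). The difference of 1.41 percentage points had a two-sided exact permutation p of 0.3, where 0.1 is the smallest that the 10 assignments of 5 libraries allow. The 1370-base circle had 25.5, 21.1 and 23.6 SRPBM per 100 SRPBM of the abundant one in triptolide A, B and C, against 26.7 and 24.3 in control 1 and 2. The 7 genes together made up 1.99%, 1.69% and 2.38% of all circRNA SRPBM in triptolide A, B and C, against 2.25% and 1.84% in control 1 and 2 (two-sided exact permutation p = 0.9). Adjusted by Benjamini-Hochberg over these 2 share tests, the exact permutation p-values were 0.6 and 0.9.

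**Figure D2:**
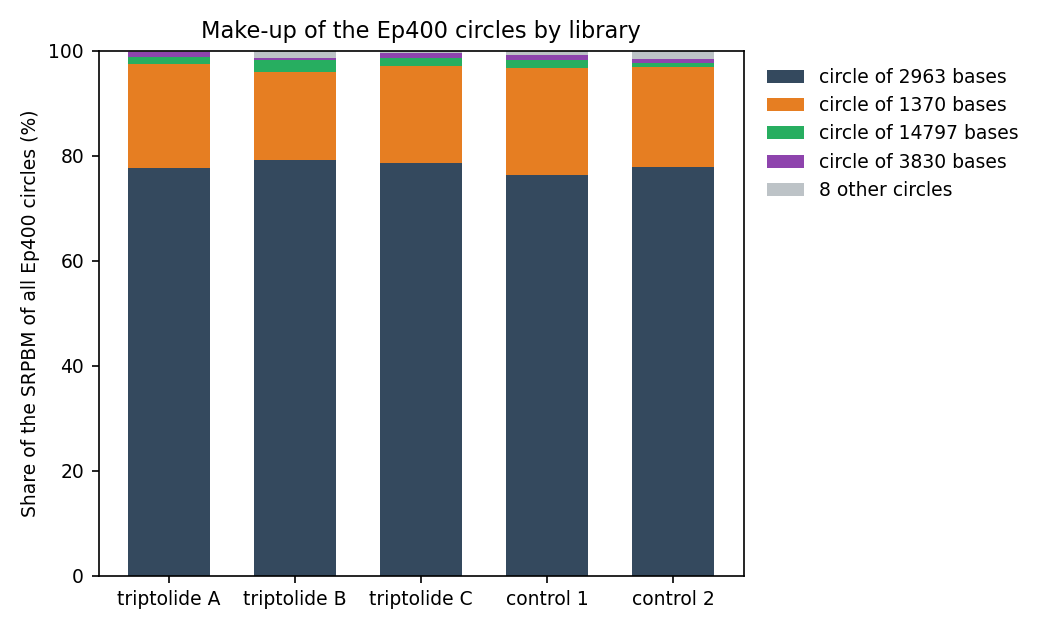
Share in percent of the SRPBM of all Ep400 circles (bars to 100%) held by each of the 4 circles above 0 in all 5 libraries and by the 8 other circles together, for triptolide A, B and C on the left and control 1 and 2 on the right. The circle of 2963 bases holds 76.4% to 79.3% in every library.

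Most back-splicing at Ep400 used 1 end. Per the promoter table of RefSeq, Ep400 is transcribed from the minus strand, so the high coordinate of a circle is its upstream end. The position at 110.757 Mb was the upstream end of 4 of the 12 Ep400 circles, among them the 3 most abundant. These 4 held 98.8%, 98.1% and 98.6% of the Ep400 SRPBM in triptolide A, B and C, against 98.3% and 98.5% in control 1 and 2. The longest of them, of 17471 bases (low end at 110739296), was listed in control 2 only, at 49 SRPBM or 6 reads. Outside that end, 2, 4 and 2 circles were above 0 in triptolide A, B and C, against 2 and 3 in control 1 and 2, with summed values of 76 to 122 SRPBM in triptolide and 98 to 131 SRPBM in control libraries. Of the 12 Ep400 circles, 10 shared at least 1 end with another. The ends 110735646 and 110691815 were upstream ends of 2 circles each, and 110733719 was the downstream end of 2. The rest were sparse: 7 of the 12 were listed in 1 library only, with 2 to 6 reads. A further circle (chromosome 5, 110733719 to 110740289) had 35 SRPBM in triptolide B and 70 SRPBM in control 1 and was listed at 0 in the other libraries. The spans of the Ep400 circles had a median of 7794 bases and ran from 1370 to 17471 bases, against a median of 16120 bases over all circRNAs.

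**Figure D3:**
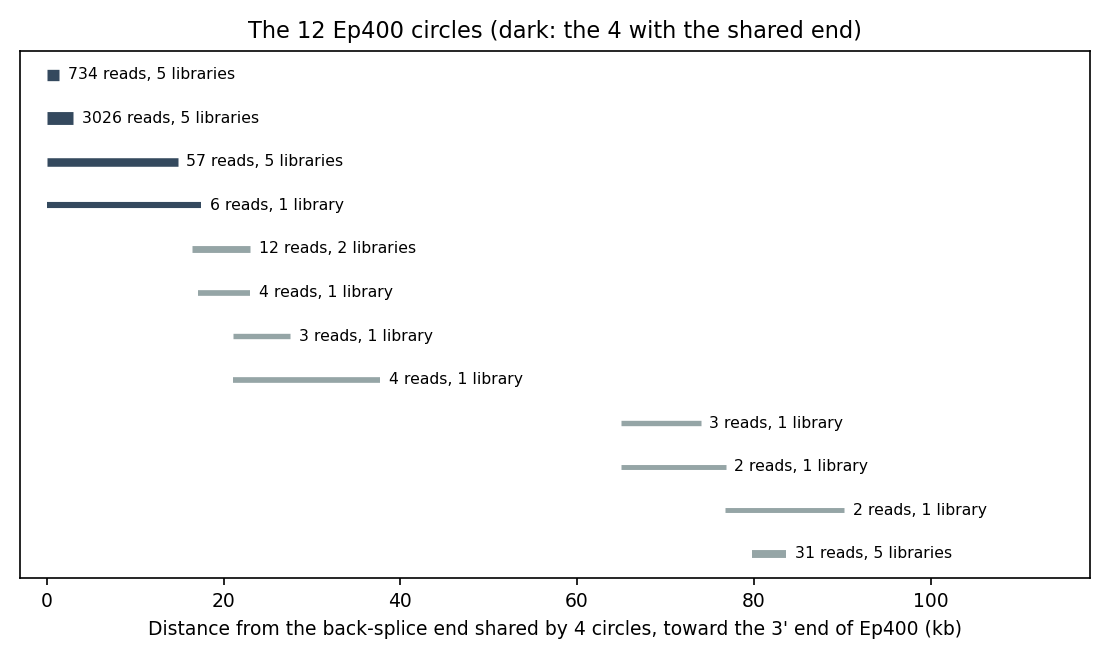
The 12 Ep400 circles by distance in kb from the back-splice end at 0, toward the 3′ end of the gene; line width grows with the log of the junction reads summed over the 5 libraries, printed beside each circle with the number of libraries that list it. The 4 dark circles start at 0 and include the circle with 3026 reads, and the 8 grey ones have at most 31 reads.

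Set against other hosts, Ep400 was rich in circles and led by 1 of them. Of 3500 host genes, 122 (3.49%) had at least 12 circles, and the median host had 2. Among these 122 hosts, a limit set at the number of Ep400 circles, the leading circle held a median of 33.5% of the mean SRPBM of its host. For Ep400 it held 77.9%, and 4 of the 122 hosts had a larger share, up to 86.4% for Cfap61. By summed SRPBM, Ep400 ranked 2 among all hosts.

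Circles of other hosts varied over the 5 libraries in step with the abundant Ep400 circle, but at far lower levels. The Trappc9 circle named below had 19 to 43 SRPBM and the Tmem184c circle 19 to 131 SRPBM, against 4802 to 5938 SRPBM. Pearson's r takes no account of the level or of the size of the swings. Among the 1403 other circRNAs above 0 in every library, those with a high Pearson's r on the log2(SRPBM + 16) scale included circles of Trappc9 (chromosome 15, 73012806 to 73031643, r = 0.982), Ankrd42 (chromosome 7, 92584466 to 92614552, r = 0.981), Rps6ka5 (chromosome 12, 100654047 to 100654489, r = 0.978) and Tmem184c (chromosome 8, 77601415 to 77606417, r = 0.959). For the 1370-base Ep400 circle r was 0.769, which ranked 108. With 5 points that share the depth of their libraries, 30 of the 1403 had r of at least 0.9, so these values are a description only.

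The 9 circles outside Ep400 were at the limit of detection. They had at most 5 reads in any library. Their SRPBM summed to 28, 26 and 26 in triptolide A, B and C, against 87 and 137 in control 1 and 2. These sums are 3, 3 and 3 reads in triptolide A, B and C, against 10 and 17 reads in control 1 and 2. The groups did not overlap, as was so in that direction for 11.5% of single host totals. These 9 circles made up 0.358% to 0.451% of the SRPBM of the 7 genes in triptolide and 1.11% to 2.07% in control libraries.

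**Figure D4:**
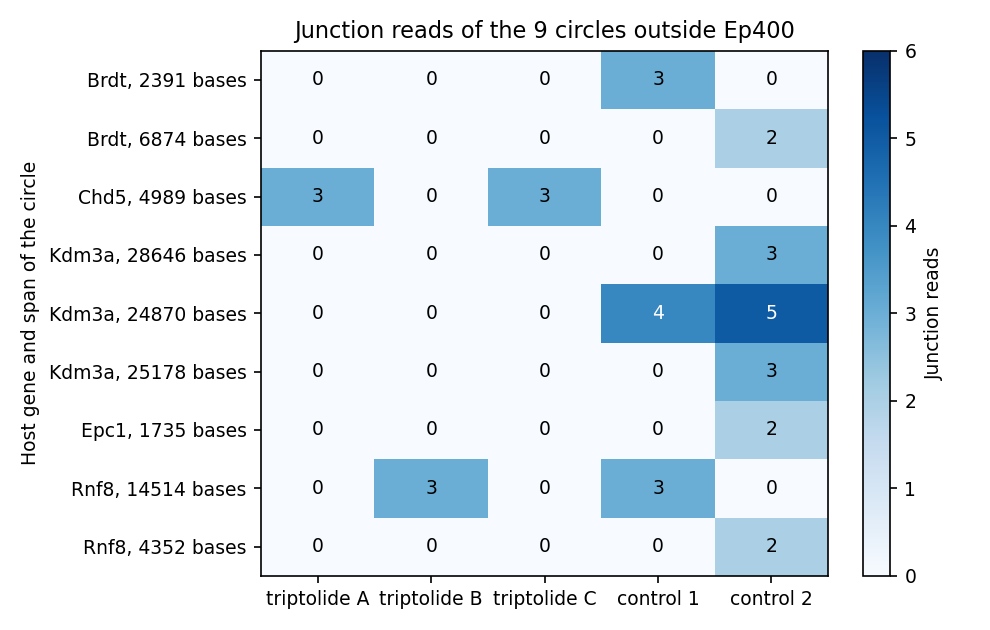
Junction reads of the 9 circles of Brdt, Chd5, Kdm3a, Epc1 and Rnf8 (rows, with the span of the circle in bases) in triptolide A, B and C on the left and control 1 and 2 on the right; colour deepens with the number printed in each cell. Kdm3a, Brdt and Epc1 circles have reads in control libraries only, Chd5 in triptolide A and C only, and no cell exceeds 5 reads.

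Kdm3a, the H3 lysine 9 demethylase, had 3 circles on chromosome 6, all listed at 0 in triptolide. The circle from 71607402 to 71632271 had 0, 0 and 0 SRPBM in triptolide A, B and C, against 35 and 41 SRPBM in control 1 and 2, that is 4 and 5 reads. The circles from 71603934 to 71632579 and from 71607402 to 71632579 had 24 SRPBM, or 3 reads, in control 2 and were listed at 0 elsewhere. All 3 thus share an end with another, and their spans of 24870 to 28646 bases are the longest of the set. Summed over the gene, Kdm3a had 0, 0 and 0 SRPBM in triptolide A, B and C, against 35 and 89 SRPBM in control 1 and 2. Of all 3500 hosts, 63 (1.8%) were likewise listed at 0 in every triptolide library and above 0 in both controls. Set against a floor of 3 reads in each triptolide library, or 27.1 SRPBM, the control mean of 62.0 SRPBM was 2.28-fold higher. This ratio rests on control 2: it is 3.28-fold for control 2 alone and 1.29-fold for control 1 alone. It takes the few control reads as exact, so it is no lower limit on a change after triptolide. In limma over 2347 hosts the sum had an unadjusted p of 0.00897 and an adjusted p of 0.76, so it did not pass. Its fitted log2 fold change of -2.19 ± 0.65 (SE) depends on the pseudocount and is no bound either. The circle from 71607402 to 71632271 alone had an unadjusted p of 0.0153 and an adjusted p of 0.68 in limma.

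Brdt, the reader of acetylated histone H4, had 2 circles on chromosome 5, each in 1 library. The circle from 107341300 to 107343690 had 26 SRPBM, or 3 reads, in control 1, and the one from 107343553 to 107350426 had 16 SRPBM, or 2 reads, in control 2. Both were listed at 0 in every triptolide library. Summed, Brdt had 0, 0 and 0 SRPBM in triptolide A, B and C, against 26 and 16 SRPBM in control 1 and 2. Both groups are at or under 3 reads in each library, so no fold is given. The unadjusted p was 0.0376 and the adjusted p 0.76 in limma. Kdm3a and Brdt were tested only because both controls list them, as a host had to be above 0 in 2 libraries, so nothing is read from their unadjusted p. Among all tested hosts 3.62% were lower in triptolide at an unadjusted p under 0.05, and 11.5% were lower in every triptolide library.

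Chd5, the chromodomain helicase, was listed in 2 triptolide libraries and in no control. Its circle (chromosome 4, 152358498 to 152363486) had 28, 0 and 26 SRPBM in triptolide A, B and C, against 0 and 0 SRPBM in control 1 and 2. That is 3, 0 and 3 reads in triptolide A, B and C, so triptolide B lay with the controls (adjusted p = 0.68 in limma). Rnf8, the ubiquitin ligase, had 2 circles on chromosome 17 with the same high end, 29636022, both also assigned by the authors to the overlapping gene model Gm28043. The circle from 29621509 had 0, 26 and 0 SRPBM in triptolide A, B and C, against 26 and 0 SRPBM in control 1 and 2, and the one from 29631671 had 16 SRPBM in control 2 alone. The groups overlapped (adjusted p of the sum = 0.85 in limma). The circle of Epc1, the NuA4 scaffold subunit (chromosome 18, 6448905 to 6450639), had 16 SRPBM, or 2 reads, in control 2 and was listed at 0 elsewhere, too few libraries for a test. Kat5, the TIP60 acetyltransferase, had no circle in the table.

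By mean SRPBM over the 5 libraries the order was Ep400, Kdm3a, Rnf8, Chd5, Brdt and Epc1, and Ep400 stood above each other gene in every library. Neighbours in the rest of that order overlapped across libraries, and the order differed between the groups. In triptolide, Chd5 averaged 18.0 and Rnf8 8.67 SRPBM, with Kdm3a, Brdt and Epc1 listed at 0. In control, Kdm3a averaged 62.0, Brdt and Rnf8 21.0 each and Epc1 8.0 SRPBM, with Chd5 listed at 0. None of the 8 member circles tested passed an adjusted p of 0.05 in limma, as was so for 0 of all 5457 circRNAs (0%), where 360 (6.6%) had an unadjusted p under 0.05, 4.8% of the tested being lower in triptolide and 1.8% higher. Of all tested circRNAs 6.78% were higher and 10.5% lower in every triptolide library. The Kdm3a circle from 71607402 to 71632271 is among the lower ones, but it was tested only because both controls list it, so nothing is read from that. The edgeR test on recovered reads also called 0 circRNAs. In simulated data the limma test of single circles found none of the planted changes, so its lack of calls says little. Those changes were planted in circles with more reads on average than the members outside Ep400, so neither test was checked for these. None of the 5 genes tested passed by host total either, against 0 of 2347 hosts (0%), with 146 (6.22%) at an unadjusted p under 0.05. By detection, 5 of the 21 members (23.8%) were listed in triptolide libraries only and 10 (47.6%) in control libraries only, against 4388 (36.7%) and 2996 (25.1%) of all 11957 circRNAs. Of the 13 members listed in a single library, 8 were in control 2, against 24.0% of all 6500 circRNAs listed once. Circles of elongating spermatid markers, of which 3 of 14 were hosts with Tnp1, Tnp2 and Prm1 among those without a circle, summed to 95 to 227 SRPBM in triptolide and 306 to 746 SRPBM in control libraries. Prm2 alone made up most of the control sums, and without it the other hosts had 19, 148 and 43 SRPBM in triptolide A, B and C, against 43 and 16 SRPBM in control 1 and 2, with the groups overlapping. Circles of round spermatid markers summed to 1036 to 1558 SRPBM in triptolide and 1662 to 1670 SRPBM in control libraries. Of these markers 5 of 15 were hosts, with Acr and Acrv1 among those without a circle. Of the 4 hosts tested, limma put 3 lower and 1 higher in triptolide, with 0 at an unadjusted p under 0.05. Circles of the 2 of 10 immune markers that were hosts summed to 66 to 96 SRPBM in triptolide and 16 to 17 SRPBM in control libraries. Ptprc and Cd68 were without a circle, and the control values are the smallest listed, 2 reads. Groups did not overlap for the elongating spermatid, round spermatid and immune sums. That was so for 11.5% of single host totals lower and 7.12% higher in triptolide. Meiotic prophase markers overlapped, with 2964 to 3256 SRPBM in triptolide and 2969 to 3893 SRPBM in control libraries. Sums of spermatogonia and Leydig cell markers overlapped too. The part of any of these differences in the member values was not tested.

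Other genes of the same machinery were compared by host total. Of 100 genes of chromatin exchange in spermatids, of the NuA4 complex and of the Kdm3, Chd and BET families, 42 were hosts and 30 could be tested. None passed an adjusted p of 0.05 in limma, 13 had higher and 17 lower values in triptolide, and the median log2 fold change was -0.16, against -0.08 over all 2347 hosts. At an unadjusted p under 0.05 there was 1 lower, Prm2, and 1 higher, Ash2l, against 3.62% lower and 2.6% higher of all hosts tested. Prm2, which encodes protamine 2, had 86, 79 and 52 SRPBM in triptolide A, B and C, against 703 and 290 SRPBM in control 1 and 2 (log2 fold change -2.43 ± 0.46, SE, adjusted p = 0.76 in limma). Its adjusted p in limma was 0.015 when hosts above 0 in only 1 library were tested too. Over all circRNAs that setting called 36, against 0 in the main fit. The share of all hosts it called is not given here, so nothing particular to Prm2 is read from it. Kdm1a, a demethylase of histone H3 lysine 4, was listed at 0 in triptolide A, B and C, against 17 and 16 SRPBM in control 1 and 2. These control values are 2 reads each, the smallest listed. Kdm1a was tested only because both controls list it, and 1.8% of all hosts had this pattern, so nothing is read from it. Ash2l, a subunit of H3 lysine 4 methyltransferase complexes, had 47, 34 and 43 SRPBM in triptolide A, B and C and was listed at 0 in both controls (adjusted p = 0.76 in limma). It was tested only because triptolide libraries list it, so nothing is read from its unadjusted p or from its groups not overlapping, as was so in that direction for 7.12% of hosts. Chd1, a chromodomain remodeller, had 162, 274 and 130 SRPBM in triptolide A, B and C, against 0 and 240 SRPBM in control 1 and 2. Without control 2, the log2 fold change in limma was 3.615 for Chd1 and -3.047 for Prm2. That fit keeps control 1 alone and drops the control that lists Chd1. Of the 16 other NuA4 subunits listed, 3 were hosts. Epc2, a paralog of Epc1, had 133, 157 and 77 SRPBM in triptolide A, B and C, against 61 and 140 SRPBM in control 1 and 2. Mbtd1 had 198, 194 and 155 SRPBM in triptolide A, B and C, against 209 and 189 SRPBM in control 1 and 2. Jmjd1c, of the Kdm3 family, had 180, 132 and 182 SRPBM in triptolide A, B and C, against 87 and 189 SRPBM in control 1 and 2.

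The lncRNA table offered a second readout at these genes. Loci of assembled non-coding transcripts overlapped 4 of the 7 genes, 2 at Brdt and 1 each at Chd5, Kdm3a and Epc1. The promoters of 2 genes that carry these results are shown as RefSeq gives them for GRCm38.p6, from 250 bases before to 50 bases after the gene start. Ep400 is the host of the abundant circle (chr5:110770668-110770967, minus strand), and at Brdt (chr5:107330944-107331243, plus strand) transcripts of an lncRNA locus on the opposite strand start within the window. Capitals mark the CCAAT box (CCAAT), the GC box (GGGCGG), the TATA box (TATAAA) and the cAMP response half-site (TGACG), on either strand. No matches overlap here.
Ep400 promoter: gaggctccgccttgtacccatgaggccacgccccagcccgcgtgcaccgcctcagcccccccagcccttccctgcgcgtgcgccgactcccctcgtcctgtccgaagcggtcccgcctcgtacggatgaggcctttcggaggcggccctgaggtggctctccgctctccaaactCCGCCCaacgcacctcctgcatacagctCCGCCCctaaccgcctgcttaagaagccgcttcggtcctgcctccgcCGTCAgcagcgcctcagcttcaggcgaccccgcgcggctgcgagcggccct
Brdt promoter: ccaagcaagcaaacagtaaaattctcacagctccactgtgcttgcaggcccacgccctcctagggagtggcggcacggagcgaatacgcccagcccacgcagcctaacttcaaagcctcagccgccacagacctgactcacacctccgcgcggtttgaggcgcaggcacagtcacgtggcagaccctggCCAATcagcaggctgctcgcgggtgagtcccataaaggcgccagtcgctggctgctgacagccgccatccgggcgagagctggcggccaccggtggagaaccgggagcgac
The Ep400 window held 2 GC boxes and 1 half-site, all on the reverse strand as printed, with a GC content of 71.0%. The Brdt window held 1 CCAAT box, with a GC content of 64.7%. Of 32851 RefSeq promoter windows of 300 bases, 37.4% held the CCAAT box, 35.7% the GC box, 20.8% the half-site and 13.6% the TATA box, so these matches are a description.

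The locus at the Brdt start, XLOC_150507 (chromosome 5, 107319383 to 107333199, minus strand), averaged more in triptolide without passing the test. It lies on the strand opposite to Brdt. If the deposited coordinates are GRCm38, 3 of its 4 transcripts start within the promoter window printed above and run away from Brdt, and 1 starts inside Brdt and crosses the whole window. It had 103.7, 76.0 and 79.0 expected counts in triptolide 3, A and B, against 59.0 and 45.0 in control 1 and 2, where A and B are 2 lncRNA columns with a single header and need not be the circRNA libraries of those letters. Scaled to all lncRNA counts, the locus had 100.7, 80.2 and 74.6 CPM in triptolide 3, A and B, against 61.2 and 42.0 CPM in control 1 and 2. The groups did not overlap, with triptolide 3 the highest, as was so in the same direction for 19.7% of the 6888 loci tested. The means were 85.2 ± 13.7 CPM in triptolide (SD, n = 3) and 51.6 ± 13.5 CPM in control (SD, n = 2), with a log2 fold change of 0.73 ± 0.27 (SE), which was 0.52 without control 2. By the quasi-likelihood test of edgeR the unadjusted p was 0.0111 and the adjusted p 0.097, which lay between 0.0565 and 0.433 over the alternatives. The transcript that starts inside Brdt, TCONS_00252735, had 34.0, 43.6 and 37.1 expected counts in triptolide 3, A and B, against 19.5 and 30.0 in control 1 and 2. TCONS_00252734 had expected counts in triptolide A only, at 19.4.

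None of the other loci passed either. XLOC_150508, antisense within Brdt (chromosome 5, 107358601 to 107359796), had 43.7, 32.7 and 41.6 CPM in triptolide 3, A and B, against 46.6 and 49.5 CPM in control 1 and 2 (log2 fold change -0.29 ± 0.30, SE, adjusted p = 0.64 in edgeR). Each triptolide library was below both controls, as was so for 18.3% of all loci tested. XLOC_155403, antisense to Kdm3a (chromosome 6, 71583111 to 71617057), had 38.85, 23.22 and 17.95 CPM in triptolide 3, A and B, against 8.29 and 18.7 CPM in control 1 and 2. Triptolide B lay between the controls (log2 fold change 0.96 ± 0.46, SE, adjusted p = 0.22 in edgeR), and the log2 fold change was 0.49 without control 1 and 1.71 without control 2. XLOC_091243, which carries the symbol Gm28529, overlaps Epc1 and is classed as intronic by the authors (chromosome 18, 6490143 to 6496962), had 26.2, 19.0 and 24.6 CPM in triptolide 3, A and B, against 15.6 and 21.5 CPM in control 1 and 2 (adjusted p = 0.71 in edgeR). XLOC_140167, at Chd5 (chromosome 4, 152352198 to 152353641), had 0 counts in every library. Of the 4 loci tested 0 passed in edgeR, against 501 of 6888 loci (7.27%), 5.01% higher and 2.26% lower in triptolide. That count of loci was 269 without control 1, 269 without triptolide 3 and 279 without triptolide A. At an unadjusted p under 0.05 there were 2 of the 4, both higher in triptolide, against 21.7% of all loci (12.9% higher and 8.81% lower). DESeq2 also called 0 of them, against 265 loci (5.26%). No source used here says if strand was used in counting, so antisense reads cannot be separated from those of Brdt or Kdm3a. The average fragment length estimated from the mRNA values was 260 ± 3.7 bases in triptolide (SD, n = 3) and 283 ± 8.1 bases in control (SD, n = 2), and its part in these values was not tested.

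**Figure D5:**
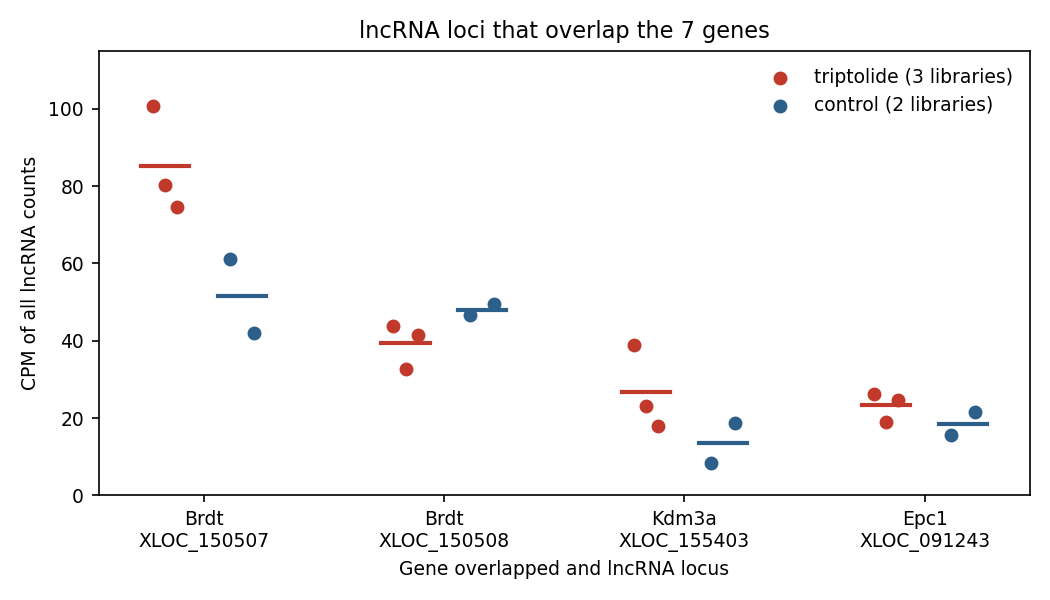
CPM of all lncRNA counts at the 4 lncRNA loci with counts that overlap Brdt, Kdm3a and Epc1; points are libraries (red, triptolide; blue, control) and short lines are group means. At XLOC_150507 the triptolide libraries lie between 74.6 and 100.7 CPM, above both controls, and none of the 4 loci passed the test.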

How the data were processed

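Total RNA of testis was depleted of ribosomal RNA and sequenced as strand-specific read pairs, per the labels' protocols. HISAT2 2.0.1, HTSeq 0.6.1, DESeq and bedtools 2.17.0 are named with no role, and the build as hg19, per the submitters' processing notes. The coordinates are mouse: 9708 of 9796 circRNAs (99.1%) with a host in RefSeq's GRCm38.p6 table lay inside it. No source used here names the circRNA caller. The authors deposited circRNA values as a score, SRPBM from the table's name, cut to whole numbers. They deposited expected counts and FPKM for lncRNA and mRNA transcripts. The deposited FPKM of mRNA served only to estimate fragment length, from transcripts spanning 800 to 20000 bases with FPKM above 20. Expected counts of mRNA summed to 15442421 to 19539236 and those of lncRNA to 947298 to 1071012 per library. The mRNA table names no gene, so host mRNA is not analysed here. The 5 lncRNA FPKM columns were not used.

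Limma 3.58.1 with a trend was applied to log2(SRPBM + 16) of each circRNA, or each sum per host gene, that was above 0 in 2 or more libraries, 16 being the smallest value above 0. Fold changes on this scale understate the change of low circles. A circRNA with 2 symbols counted for both. Expected counts were summed per lncRNA locus, rounded to whole numbers and tested with edgeR 4.0.16 (filterByExpr, TMM, quasi-likelihood F test). DESeq2 1.42.0 and edgeR on recovered reads were alternatives. P-values were adjusted by Benjamini-Hochberg over the whole table, with a threshold of 0.05. Scripts were tested on simulated data. There the limma test of single circles found none of the planted changes, while edgeR on recovered reads found them in large part. A lack of limma calls among single circles thus says little. The spread among simulated libraries was set by hand, not estimated from these data. How much edgeR would find in these libraries is therefore not known. Changes were planted only in circles with more reads on average than the members outside Ep400 had. Shares were compared by exact permutation of the 10 assignments. The members and lists were chosen with earlier results of these data known. Circles named are the most abundant of each gene, those above 0 in all 5 libraries, those with an unadjusted p under 0.05 and those sharing an end with the abundant Ep400 circle. Of other genes, the 2 with the smallest p in each direction are named, and of circRNAs most like the abundant Ep400 circle the 5 with the highest r, 1 of which is not reported here. The remaining circles of Kdm3a, Brdt and Rnf8, the Ep400 circle from 110733719 to 110740289, Bbs9, Cfap61, Epc2, Mbtd1, Jmjd1c and the single lncRNA transcripts were named after their values were seen. Promoters of 6 of the 7 genes matched RefSeq by symbol. R 4.3.3 and Python 3.11.15 were used.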

Additional observations from a re-analysis of the deposited data

How the results depend on the processing

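The count of member circles past the threshold, of member host totals and of lncRNA loci at these genes was 0 under every alternative that kept both controls. Not every member was tested in each run, so this count is no measure of robustness for the sparse genes. Kdm3a and Brdt were not tested without control 1 or without control 2, nor Chd5 without triptolide A or without triptolide C. Among circles above 0 in all 5 libraries only those of Ep400 were tested. Over all circRNAs limma called 0, against 36 with no filter, 1 among those above 0 in all 5 libraries and 0 to 130 with 1 library left out, the 130 without control 2. Of the chromatin genes 1 host total passed with no filter (Prm2), where the number of all hosts that passed is not given here. With 1 triptolide library left out 0 passed. Calls among these genes from the fits that keep a single control are not given, so Prm2 with no filter need not be the only one. The log2 fold change of the abundant Ep400 circle, -0.07, was 0.0192 with equal summed SRPBM, 0.0398 with edgeR on recovered reads, and -0.185 to 0.051 with 1 library left out. That of the Ep400 host total, -0.09, was 0.0262 with edgeR on recovered reads and -0.226 to 0.039 with 1 library left out. That of the 14797-base Ep400 circle was -0.211 to 0.699 with 1 library left out. That of the 3830-base circle was 0.089 with edgeR on recovered reads and -0.354 to 0.228 with 1 library left out. The share of the 7 genes among all circles, -0.0253 percentage points (triptolide minus control), was 0.255 among circRNAs above 0 in all 5 libraries and -0.23 to 0.18 with 1 library left out. The cause of these turns was not tested. The abundant circle's share of Ep400 was 0.653 to 2.16 percentage points higher in triptolide under each alternative run. The log2 fold change of the Kdm3a total was -5.83 with a pseudocount of 1 and -0.94 with 64. Without a control, the lone control left is assumed to vary like the triptolide libraries. With 501 lncRNA loci called by edgeR, DESeq2 called 265, and edgeR called 269 to 588 with 1 library left out. With few reads per circle outside Ep400, neither presence nor absence in a library can be read closely. No paired analysis was possible because the triptolide columns of the circRNA and lncRNA tables share headers, so that fewer than 2 replicate numbers are common to both groups. The labels also do not state that equal replicate numbers mark pairs, and the groups were different mice, so no pairing is assumed.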
